A study of Drosophila melanogaster with 8 samples.

Results

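The genes described here are crc, Keap1, Sesn, Prx3 and Gtpx, 5 genes of the integrated stress and antioxidant responses, out of 6793 genes named on a 2-colour cDNA array of the fruit fly Drosophila melanogaster. They were found as the rows whose gene name, brought up to date through gene IDs, was one of these 5 symbols. The genes had been chosen by fitted log2 ratios of these arrays: Keap1 and Sesn were selected on their day 10 values, and crc, Prx3 and Gtpx on their day 14 values. Those values are therefore given below as a description, without a test.

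The integrated stress response slows translation when kinases phosphorylate the initiation factor eIF2, and lets the transcription factor ATF4, the product of crc in the fly, be made and switch on genes of amino acid supply and repair. Keap1 holds the fly Nrf2 factor, the product of cnc, ready for degradation by a Cullin 3 ubiquitin ligase, and oxidants release that hold so that antioxidant genes are transcribed. Sestrin, the product of Sesn, restrains the growth kinase TOR, and peroxiredoxins and related peroxidases remove hydrogen peroxide and lipid peroxides with electrons from thioredoxin.

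The RNA came from heads of unmated Oregon-R males, a wild-type strain, aged 3 to 4 days when feeding began. In the later group, flies ate food with pentylenetetrazole (PTZ, a GABA-A receptor blocker that causes seizures) for 7 days, food with sodium valproate (NaVP, given against epilepsy and known as an inhibitor of histone deacetylases) for 3 days and normal food for 4 more, and heads were taken on day 14 (n = 4 arrays). In the earlier group, heads were taken on day 10, at the end of the same PTZ and NaVP feeding (n = 4 arrays). The control flies of both groups had normal food throughout and the same changes of vial, and no group had NaVP without PTZ. The sample labels give 8 mg/ml PTZ and 0.33 mg/ml NaVP, and these disagree with the design text of the series (0.33 mg/ml PTZ and 24 mg/ml NaVP). Each array set treated head RNA against control head RNA, pooled over vials, and on replicates 3 and 4 of each day the dyes were exchanged. The 4 arrays of each day are biological replicates by the design text.

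All values are log2 ratios of treated over control RNA, centred on the array's median, so that 0 is the middle spot of an array and 1 a doubling. They hold no level of expression, and genes cannot be ranked by abundance from them. In RNA of whole heads, fewer cells of a type and less RNA per cell cannot be told apart. The sign rests on reading each deposited value as Cy5 over Cy3 with the swapped arrays not yet turned. The sources used here do not state this. On all 16 pairs of arrays with opposite dyes, the print-block medians correlated above 0 (0.28 to 0.84), a pattern of the slide that keeps its sign whichever RNA carries a dye. These correlations bear on the turning only. They would be the same if every value were Cy3 over Cy5, which would reverse every sign given here and was not tested. Where a reading with the swapped arrays already turned at deposit gives a member another sign or size, its value stands beside the gene.

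A day 14 array had values for 11208 to 14421 spots, and a day 10 array for 13524 to 19905; precision is limited by having 4 arrays a day. The spread of an array's ratios was narrower at day 14 (SD 0.33 to 0.43) than at day 10 (SD 0.52 to 0.86). Of the head's defining genes, 4 of 5 photoreceptor genes on the array (among Arr1, Arr2, trp, trpl and inaD) had values on all 8 arrays, as did the synaptic vesicle gene nSyb. Of 5 genes of the male reproductive tract, 0 had values on all 8, but each had a value on some array. At day 10, 3 of them had values on at least 3 arrays (median -0.31). Genes with values on all 8 arrays were 1 of 3 for glia, 2 of 6 for head fat body, 1 of 5 for haemocytes and 3 of 6 for muscle. Photoreceptor genes had a median of -0.12 at day 14 (0 of 4 above 0) and -0.14 at day 10 (1 of 4). Head fat body genes had one of -0.50 at day 14 (0 of 4 above 0) and -0.26 at day 10, where 2 of 5 lay above 0, up to 0.40. The glial genes measured stood at -0.51 and -0.23 at day 14, and 1 of 3 lay above 0 at day 10 (median -0.06). Muscle genes had a median of -0.15 at day 14 (1 of 4 above 0) and -0.07 at day 10 (1 of 5), while haemocyte genes had 1 value at day 14, -0.07, and a median of 0.23 at day 10 (3 of 4). The part of these shifts in the values of the stress genes was not tested.

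The integrated stress response was represented by crc (cryptocephal, CG8669), the fly ATF4. At day 14 crc stood at -0.36, -0.39, -0.63 and -0.61 on replicates 1 to 4. At day 10 it stood at 0.51, 0.59, -0.42 and -0.40. All 4 day 14 arrays were thus below 0 and close to each other, while the day 10 arrays fell into a higher pair and a lower pair that matched the dye orientation, and the days overlapped. The mean was -0.50 ± 0.14 at day 14 (1.41-fold lower in treated heads) and 0.07 ± 0.56 at day 10 (SD, n = 4 each).

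At day 14, crc lay lower than most named genes on each array, with 12.0%, 9.71%, 2.72% and 2.01% of them below it. A feature was a named gene or a spot with no single gene name. Of the 7529 with values on at least 3 day 14 arrays, 9.62% lay below 0 on every array with a value. For crc, Prx3 and Gtpx this held on 4 of 4 arrays. They were chosen on their day 14 values, so setting them beside that share is no test. Of the 7529, limma's joint fit of both days called 0 (0%) after Benjamini-Hochberg adjustment, and 300 (3.98%) had an unadjusted p under 0.05. The day 14 arrays fitted alone gave 70 calls among the 7529 (0.93%), a count from which nothing is read about genes chosen on those arrays. The day 10 value of crc had no part in its choice, and there the joint fit gave 0.07 with a 95% interval of -0.26 to 0.39 (adjusted p = 0.894 with limma).

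The day 10 values of crc followed the dye. As Cy5 over Cy3, whichever RNA carried Cy5, its ratio was 0.51, 0.59, 0.42 and 0.40 on the day 10 arrays. Such a split, with the sign of all 4 arrays set by the dye orientation, was found in 37.2% of the 7545 features with values on all 4 day 10 arrays. Of the 5 stress genes, crc, Prx3 and Gtpx showed it, and Keap1 and Sesn did not. If the swapped arrays had already been turned at deposit, crc would stand at 0.12 at day 14 and at 0.48 at day 10, so the sign of its day 14 value depends on that reading.

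**Figure D1:**
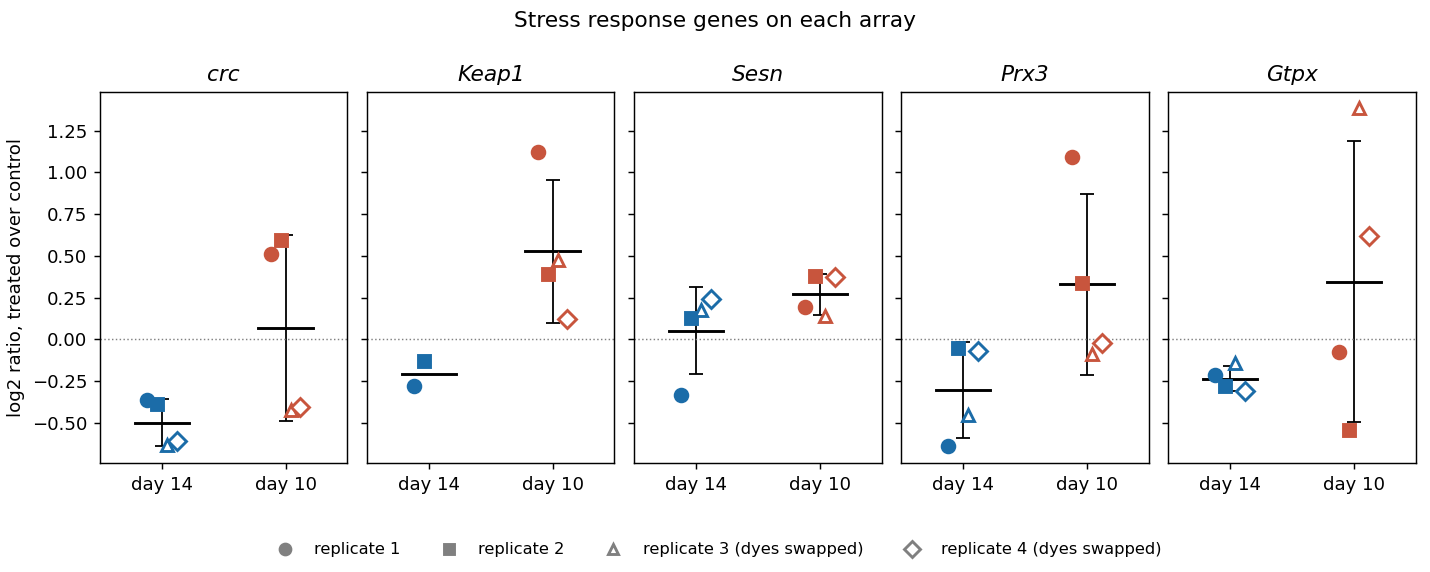
Log2 ratio of treated over control head RNA (vertical axis) for each gene on each array, with day 14 on the left and day 10 on the right of each panel; filled symbols are arrays with treated RNA in Cy5, open symbols the swapped arrays, horizontal lines the means and bars the SD over arrays (none for Keap1 at day 14, with 2 arrays). The 4 crc arrays of day 14 lie between -0.63 and -0.36, while crc, Prx3 and Gtpx at day 10 split into filled and open symbols on opposite sides of 0.

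Keap1 (CG3962), the adaptor that binds the cnc protein for degradation, stood at -0.28 and -0.13 on day 14 replicates 1 and 2 and had no value on replicates 3 and 4, whose spots did not pass the authors' filter. At day 10 it stood at 1.12, 0.39, 0.47 and 0.12. Every measured day 14 array was below every day 10 array, a direction in part fixed by the choice of Keap1 on its day 10 values. All day 14 arrays lay below all day 10 arrays in 2.32% of the 6419 features with at least 3 arrays on each day, a number of arrays that Keap1 did not reach. The day 14 mean was -0.21 over 2 arrays of the same dye orientation, too few to be tested, and the day 10 mean was 0.53 ± 0.43 (SD, n = 4; 1.44-fold higher in treated heads).

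Keap1 was above 0 on 4 of 4 day 10 arrays, as was Sesn. Of the 11509 features tested at day 10, 6.37% lay above 0 on every array with a value. Keap1 and Sesn were chosen on their day 10 values, so setting them beside that share is no test. Of the 11509 features limma called 0 (0%) after adjustment, and 768 (6.67%) had an unadjusted p under 0.05. Replicate 1 carried much of the Keap1 value: 93.5% of named genes were below Keap1 there, against 64.1% on replicate 4, and without replicate 1 the fitted value was 0.34. The region of the slide that held the Keap1 spots had block medians of 0.65, 0.26, -0.01 and -0.17 on day 10 replicates 1 to 4. With each print block centred on its own median, Keap1 stood at 0.48, 0.13, 0.48 and 0.29 on those arrays, with a mean of 0.34 ± 0.17 (SD, n = 4). With the swapped arrays taken as already turned, the fitted day 10 value was 0.23.

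Sesn (CG11299), the only sestrin gene of the fly, stood at -0.34, 0.13, 0.17 and 0.24 at day 14 and at 0.19, 0.38, 0.14 and 0.37 at day 10. Only day 14 replicate 1 was below 0, and the days overlapped. The mean was 0.05 ± 0.26 at day 14 and 0.27 ± 0.12 at day 10 (SD, n = 4 each). The day 14 value, which had no part in the choice of Sesn, was fitted at 0.05 with a 95% interval of -0.24 to 0.34 (adjusted p = 0.999 with limma). With the swapped arrays taken as already turned, the fitted values were -0.16 at day 14 and 0.01 at day 10. With each print block centred on its own median, Sesn stood at -0.04, 0.21, 0.04 and 0.46 on the day 10 arrays. Replicate 1 then lay below 0.

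Sesn was spotted at separate places on the slide, as 2 pairs of duplicate spots in different print blocks, and the pairs did not give the same values. The first pair averaged -0.34, 0.21, 0.11 and 0.27 at day 14, against 0.48, 0.78, 0.01 and 0.46 at day 10. The second pair had no value on day 14 replicate 1 and averaged 0.05, 0.23 and 0.22 on the other day 14 arrays, against -0.09, -0.03, 0.27 and 0.29 at day 10. At day 10 the first pair was the higher one on replicates 1, 2 and 4 and the lower one on replicate 3.

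The day 10 means of the pairs were 0.43 ± 0.32 for the first and 0.11 ± 0.20 for the second (SD, n = 4 each). Their day 14 means were 0.06 ± 0.27 (n = 4) and 0.17 ± 0.10 (n = 3). The first pair was thus lower at day 14 than at day 10 in its mean, and the second was not. The one low array of day 14 rested on the first pair alone. The block of the first pair had medians of 0.52, 0.61, -0.30 and -0.19 on the day 10 arrays, and the block of the second -0.05, -0.28, 0.50 and 0.00. On replicates 1 to 3 the pair in the higher block was the higher pair, and on replicate 4 it was the lower one. The part of the slide in the difference between the pairs was not tested.

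**Figure D2:**
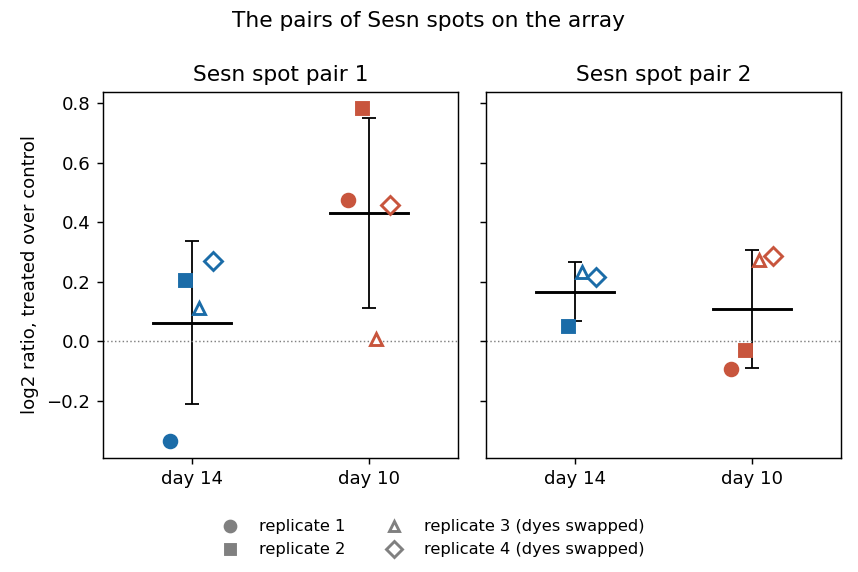
Log2 ratio of treated over control head RNA for each pair of Sesn spots on each array, day 14 on the left and day 10 on the right; symbols are arrays as keyed, lines are means and bars the SD over arrays. The first pair averages 0.06 at day 14 and 0.43 at day 10, and the second 0.17 and 0.11.

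Among the peroxidases, Prx3 (CG5826), the mitochondrial peroxiredoxin, stood at -0.64, -0.05, -0.45 and -0.07 at day 14 and at 1.09, 0.34, -0.09 and -0.02 at day 10. All 4 day 14 arrays were below 0, with replicates 1 and 3 far lower than replicates 2 and 4, and the days overlapped. The mean was -0.30 ± 0.29 at day 14 (1.23-fold lower in treated heads) and 0.33 ± 0.54 at day 10 (SD, n = 4 each). At day 10, which had no part in its choice, the fit gave 0.33 with a 95% interval of -0.12 to 0.78 (adjusted p = 0.729 with limma).

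Replicate 1 held the extreme Prx3 value on both days. Without it the fitted values were -0.10 at day 14 and 0.09 at day 10. With the swapped arrays taken as already turned, they were -0.04 at day 14 and 0.39 at day 10. With each print block centred on its own median, Prx3 stood at -0.60, 0.09, -0.39 and 0.01 on the day 14 arrays. Replicates 2 and 4 then lay above 0.

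Gtpx (CG12013), a phospholipid hydroperoxide glutathione peroxidase homologue that in the fly draws its electrons from thioredoxin, stood at -0.21, -0.28, -0.14 and -0.31 at day 14. At day 10 it stood at -0.08, -0.54, 1.38 and 0.62. The day 14 arrays lay within 0.16 of each other, and 3.78% of 2195 named genes had a smaller SD there. The joint fit shares 1 dye term between the days, and Gtpx followed the dye at day 10 only. With a day 14 array left out, the fitted day 14 value therefore also depended on the day 10 arrays. It was -0.38 without replicate 1, -0.14 without replicate 3 and -0.07 without replicate 4, while the day 14 arrays themselves ran from -0.31 to -0.14. The day 10 arrays spanned 1.93, and 87.5% of 3375 named genes had a smaller SD. The mean was -0.24 ± 0.07 at day 14 (1.18-fold lower in treated heads) and 0.34 ± 0.84 at day 10 (SD, n = 4 each).

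The standard error of Gtpx at day 14 in the joint fit was 0.20, since the fit takes 1 spread and 1 dye term for both days. The day 10 value, not used to choose Gtpx, had a 95% interval of -0.16 to 0.85 (adjusted p = 0.729 with limma) and was 0.06 without replicate 3. With the swapped arrays taken as already turned, Gtpx stood at -0.01 at day 14 and at -0.66 at day 10. The spots of Gtpx on day 10 replicate 4 differed from each other by 0.71, whereas the median difference between duplicate spots on that array was 0.19.

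**Figure D3:**
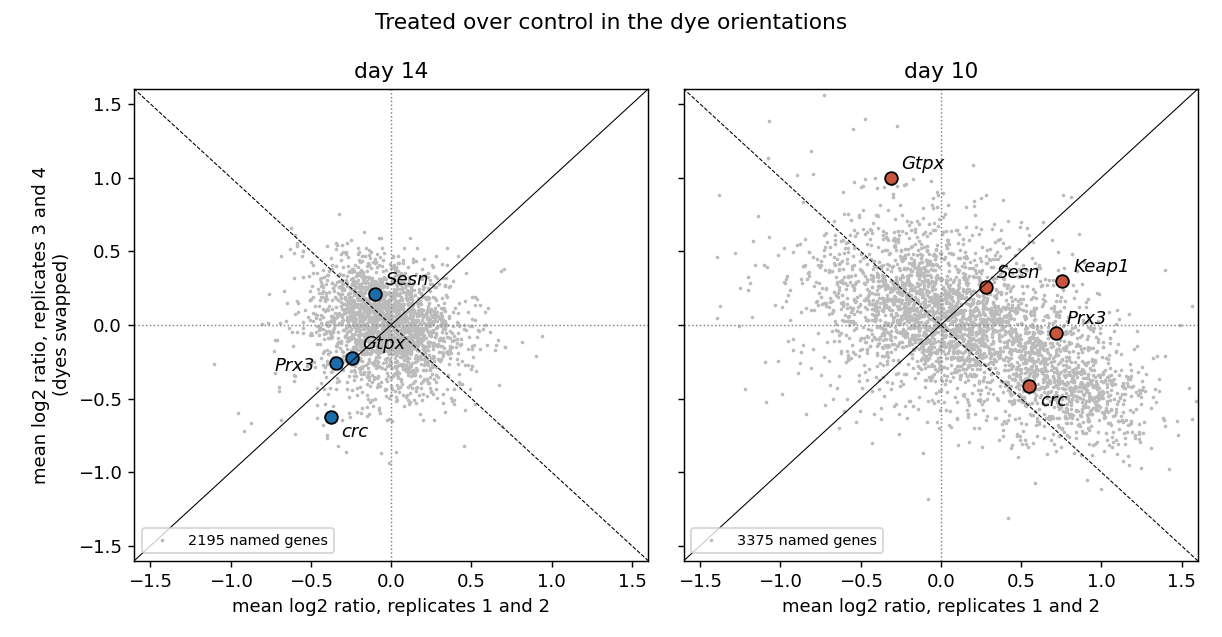
Mean log2 ratio of treated over control RNA on replicates 1 and 2 (horizontal axis) against that on the dye-swapped replicates 3 and 4 (vertical axis), for day 14 on the left and day 10 on the right; grey dots are named genes with values on all 4 arrays (2195 and 3375, of which 7 at day 10 lie outside the axes), the solid line marks equal values and the dashed line values that follow the dye. At day 14 crc, Prx3 and Gtpx lie on the lower left, while at day 10 crc lies near the dashed line at 0.55 and -0.41, and Sesn near the solid one.

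Set side by side, the 4 members measured on enough arrays of both days had lower means at day 14 than at day 10. The difference, day 14 minus day 10, was -0.57 for crc, -0.63 for Prx3, -0.58 for Gtpx and -0.22 for Sesn. These differences share the values for which the members were chosen, which in part fixes their direction, and they are not tested. With 1 array left out, Prx3 stood at -0.40 without day 10 replicate 1, Gtpx at -0.30 without day 10 replicate 3 and Sesn at -0.09 without day 14 replicate 1. Over the whole table limma called 0 of 6419 features in this difference (0%), and for 402 (6.26%) the unadjusted p was under 0.05. The days overlapped in all 4. With the swapped arrays taken as already turned, the difference was -0.36 for crc, -0.43 for Prx3, 0.65 for Gtpx and -0.17 for Sesn.

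Between members, the root mean square difference over shared arrays ran from 0.28 for Keap1 and Prx3 (6 arrays) to 0.89 for crc and Gtpx (8 arrays), with 0.38 for crc and Prx3 and 0.45 for Sesn and Prx3 (8 arrays each). Among 1482 named genes with values on all 8 arrays, the one most like crc was Sodh1, a sorbitol dehydrogenase gene, at a root mean square difference of 0.16, followed by Nmda1 (0.19) and Msr-110 (0.19), against a median of 0.57 over all genes. Sodh1 stood at -0.36, -0.47, -0.40 and -0.67 at day 14 and at 0.53, 0.45, -0.69 and -0.18 at day 10, with the same split by dye at day 10.

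The nearest gene to Sesn was CG9399 (0.13), followed by HIP, which encodes an Hsc70-interacting protein (0.13), and fend (0.15). Prx3 was nearest to REG, a proteasome activator gene (0.19), the synaptobrevin gene Syb (0.20) and GstT4, a theta-class glutathione transferase gene (0.20). Gtpx was nearest to the small GTPase gene Rab27 (0.21), the twinfilin gene twf (0.25) and Osi17 (0.27). Keap1 lacked values on 2 arrays and was not compared in this way.

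The wider pathways were drawn from 6 lists of 78 other genes, of which 42 were on the array under a single gene name. Of these, 27 had values on at least 3 day 14 arrays and 35 on at least 3 day 10 arrays. At day 14, 7 lay above 0 and 20 below, with a median of -0.07, where 48.4% of all named genes lay above 0 and their median was -0.01. At day 10, 21 lay above 0 and 14 below, with a median of 0.08, where 56.6% of all named genes lay above 0 and their median was 0.04. On either day 0 of them were called by limma, and 0 had an unadjusted p under 0.05, against 3.98% of features at day 14 and 6.67% at day 10. With the swapped arrays taken as already turned, 15 of the 27 lay above 0 at day 14, with 0 called. Under that reading 20 of the 35 lay above 0 at day 10, 1 was called, and 8 higher and 2 lower ones had an unadjusted p under 0.05. Such p-values were far more common over the whole table under that reading. At day 10, limma called 304 of 11509 features, and 3293 had an unadjusted p under 0.05. The counts for the list have to be set beside these, and nothing is read from them.

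Around crc, the eIF2 kinase gene Gcn2, which responds to amino acid shortage, stood at -0.10 ± 0.21 at day 14 (standard error of the fit, n = 4) and 0.14 ± 0.27 at day 10 (n = 3). The sign of its day 14 mean rested on replicate 1 (-1.06), as replicates 2 to 4 lay at 0.16, 0.20 and 0.29. PEK, the eIF2 kinase gene of the endoplasmic reticulum, stood at 0.03 ± 0.14 at day 14 (n = 4) and had values on 2 day 10 arrays only, -0.51 and -0.41. The endoplasmic reticulum stress factor gene Atf6 was at 0.09 ± 0.14 at day 14 and 0.15 ± 0.14 at day 10, and eIF2beta at -0.08 ± 0.18 and -0.13 ± 0.20. The arrays of Atf6 were split by dye at day 10 (-0.13, -0.31, 0.63 and 0.40) and at day 14 (-0.036, -0.586, 0.635 and 0.329). Those of PEK were split at day 14 (-0.39, -0.16, 0.30 and 0.36). The share of features with such a split at day 14 was not counted. Irbp18, a bZIP partner of ATF4, was at -0.07 ± 0.13 at day 14. Of the 6 genes of this list tested at day 14, 2 were above 0, and of the 4 at day 10, 2 were.

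Targets of crc known in flies or mammals had 1 of 4 above 0 at day 14 and 3 of 5 at day 10. The alanyl-tRNA synthetase gene AlaRS was at -0.17 ± 0.16 at day 14 and 0.11 ± 0.17 at day 10, and SerRS, which charges serine tRNA, at -0.17 ± 0.19 and -0.18 ± 0.20. The serine synthesis genes gave -0.05 ± 0.17 for CG6287 at day 14 and 0.19 ± 0.18 at day 10, and 0.25 ± 0.19 for CG11899 at day 10. The day 10 arrays of CG6287 were split by dye (0.30, 0.96, -0.45 and -0.04). The one-carbon enzyme gene Nmdmc had 2 arrays a day, at -0.23 and 0.43 on day 14 and at -0.83 and -0.42 on day 10. No row carried the name of Thor, trbl, AsnS, Ldh or Hsc70-3, which are not analysed here.

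Around Keap1, maf-S, the small Maf partner of the cnc protein, was at -0.05 ± 0.18 at day 14 and 0.30 ± 0.19 at day 10 (n = 4 each). Cul3, the scaffold of the ligase that Keap1 serves, was at -0.08 ± 0.14 at day 10 and had 2 day 14 values, -0.03 and 0.19. Known antioxidant targets of this pathway showed small fitted values. GstD1 was at -0.17 ± 0.13 at day 14 and -0.03 ± 0.13 at day 10, and the glutathione synthesis gene Gclm at -0.09 ± 0.16 and 0.18 ± 0.16. The day 10 arrays of Gclm were split by dye (0.74, 0.94, -0.58 and -0.39), which a standard error after the dye term does not show. In this list 1 of 5 genes besides Keap1 was above 0 at day 14 and 2 of 6 at day 10. Gclc and cnc itself were not among the named rows.

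Around Sesn, alc, which encodes the beta subunit of the energy sensor AMPK, had the smallest p of its list on day 10. It stood at -0.13, -0.05 and -0.23 on day 14 replicates 2 to 4, and at 0.09, 0.32, 0.75 and 0.12 at day 10, so the days did not overlap, as in the 2.32% of features given for Keap1. Its difference was -0.48 ± 0.23 (adjusted p = 0.773 with limma). The day 10 values for which alc was named enter this difference and in part fix its direction. Tsc1, an inhibitor of TOR, was at 0.17 ± 0.24 at day 14 and 0.40 ± 0.26 at day 10, and Nprl2, of the GATOR1 complex that also restrains TOR, at -0.16 ± 0.18 and -0.09 ± 0.17. The transcription factor gene foxo stood at -0.06 ± 0.15 and -0.09 ± 0.16, and the TOR substrate gene S6k at -0.03 ± 0.13 and -0.10 ± 0.13. The day 14 arrays of foxo (-0.265, -0.404, 0.25 and 0.186) and Tsc1 (-0.11, -0.01, 0.34 and 0.46) were split by dye. Besides Sesn, 1 of 6 genes of this list was above 0 at day 14 and 6 of 10 at day 10.

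Around the peroxidases, 2 of 6 other thioredoxin, peroxiredoxin and glutaredoxin genes were above 0 at day 14 and 5 of 7 at day 10. The glutaredoxin gene Grx1 was at -0.29 ± 0.17 at day 14 and 0.19 ± 0.18 at day 10. The thioredoxin reductase gene Trxr1, which keeps thioredoxin reduced, was at -0.15 ± 0.13 and -0.01 ± 0.14, and its relative Trxr2 at 0.11 ± 0.14 and 0.11 ± 0.17. The arrays of Trxr1 were split by dye at day 10 (0.22, 0.40, -0.20 and -0.47) and at day 14 (0.18, 0.05, -0.68 and -0.13). Trx2, the main cytosolic thioredoxin, was at 0.10 ± 0.15 at day 10, with the split by dye seen in crc (0.60, 0.62, -0.48 and -0.33), and had 2 day 14 values, -0.19 and -0.56.

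The germline thioredoxin genes also had values. TrxT was at -0.10 ± 0.15 at day 14 and -0.32 ± 0.19 at day 10, and dhd at 0.14 ± 0.20 and 0.27 ± 0.22. The day 14 arrays of TrxT were split by dye (0.29, 0.28, -0.51 and -0.48). The peroxiredoxin gene Prx6a was at 0.01 ± 0.13 at day 10, where its arrays ran from -0.12 to 0.14 and were split by dye. It had 2 day 14 values, 0.27 and 0.39. The mitochondrial superoxide dismutase gene Sod2 was at -0.02 ± 0.17 at day 14 and 0.18 ± 0.15 at day 10, where it too was split by dye. The extracellular dismutase gene Sod3 was at -0.27 ± 0.20 at day 10 (n = 3). Prx2, Prx4, Prx5, Prx6b, Sod1 and Cat were not among the named rows.

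**Figure D4:**
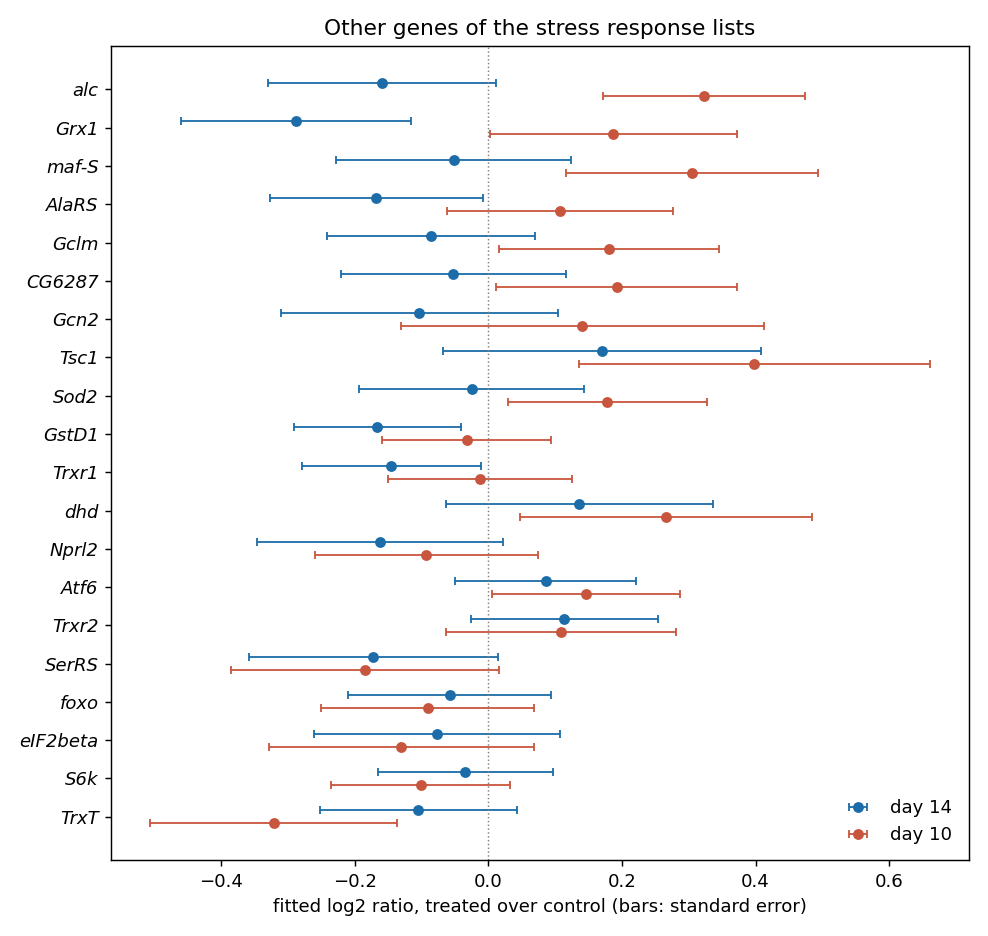
Fitted log2 ratio of treated over control head RNA (horizontal axis) with its standard error for 20 other genes of the stress response lists tested on both days, day 14 drawn above day 10 for each gene and genes ordered by the difference. The fitted values run from -0.29 (Grx1) to 0.17 (Tsc1) at day 14 and from -0.32 (TrxT) to 0.40 (Tsc1) at day 10.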

How the data were processed

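Heads of treated and control flies were compared on 8 arrays, 4 a day. Per the series text, the authors quantified slides with GenePix Pro 6.0, normalised ratios with Acuity 4.0 and kept spots with under 3 percent saturated pixels, an R2 of at least 0.6 and a signal-to-noise ratio of at least 3, and blank cells were taken as spots that failed. The deposited values were read from their range as log2 ratios. Here 2 values at a cap were left out, each array was centred on its median and swapped arrays were turned. Of 27648 rows, 15116 named 1 gene, 102 several and 12430 none, and 14894 matched the RefSeq table of assembly Release 6 by gene ID. The array's genome build is not given in the sources used here, so no coordinates are printed. Rows of a gene were averaged.

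Tests used limma 3.58.1 in R 4.3.3 on all 8 arrays, with a mean per day and a gene-wise dye term, Benjamini-Hochberg adjusted over all features with values on at least 3 arrays of each day compared. The fit was run on simulated arrays with a dye effect shared by both days and no print-block pattern. That simulation did not cover dye effects that differ between days. The fit pools the spread of both days, although day 10 varied more. The members, and the lists around them, were chosen with earlier results of these data known. Besides the 5 members, genes were named for their role, or as the 2 with the smallest p of a list on a day; likeness was the root mean square difference over 8 arrays. Alternatives changed centring, turning, dye term, scaling, row averaging, filters and arrays. Fitting each day alone after centring print blocks was chosen after seeing the data.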

Additional observations from a re-analysis of the deposited data

Results flagged for a closer look

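Keap1 was above 0 on all 4 day 10 arrays and below 0 on both day 14 arrays with a value. Its day 14 mean minus its day 10 mean was -0.732. The day 10 values served to choose Keap1, which in part fixes the direction of this difference. It was not tested, also because 2 day 14 arrays lacked the gene. The AMPK subunit gene alc was below 0 on its 3 day 14 arrays and above 0 on all 4 day 10 arrays, with a difference of means of -0.46, which missed the threshold in the limma fit (adjusted p = 0.773). The day 10 values for which alc was named in part fix that direction too. Such days without overlap, with day 14 lower, were found in 2.32% of the 6419 features with at least 3 arrays on each day, which Keap1 did not have. In the other direction, PEK, Prx6a and Nmdmc had every day 14 value above every day 10 value. Each of these had only 2 arrays on a day or on both. The share of features in that direction was not counted. Single arrays lay far from the other 3 for Gcn2, at -1.064 on day 14 replicate 1, and for S6k, at 0.298 on day 14 replicate 3. There were 43 groups of 4 arrays checked in this way, and chance gives about 1 such array in 20 groups.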

How the results depend on the processing

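Reading the swapped arrays as already turned had the widest effect: it gave 304 calls among 11509 features at day 10, with 0 at day 14 and 0 in the difference, and the tested values that changed sign were Sesn at day 14 (-0.16) and Gtpx at day 10 (-0.66). For day 14, a fit without the other day gave 70 calls, arrays scaled to 1 spread 39, and print blocks centred with days fitted alone 47, against 0 in the joint fit. The other alternatives run gave 0 calls on either day and in the difference. The near-zero value of crc at day 10 was -0.018 without centring, -0.14 with print blocks centred (the same with days fitted alone) and -0.015 with arrays scaled. Sesn at day 14 was -0.031 without centring. Without 1 array at a time, crc at day 10 lay between -0.021 and 0.14 and Sesn at day 14 between -0.0072 and 0.18, while crc at day 14 kept its sign (-0.58 to -0.42). With the replicate number as a block over both days, 0 features were called in the difference, at day 14 and at day 10. The labels do not say that the numbers pair the arrays, and the deviations of same-numbered arrays correlated at 0.06, 0.42, 0.39 and 0.10 (0.07 for each after the dye was taken out). The causes of these changes were not tested.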
